A study of Mus musculus with 288 samples.

Results

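Regulators of G protein signalling (RGS proteins) switch off receptor signals: they speed the hydrolysis of GTP by the G protein α subunit and so shorten the response of a cell to the ligands of its G protein coupled receptors. Hormone release from the enteroendocrine cells of the gut is driven by receptors coupled to Gs and Gq and mainly restrained by those coupled to Gi. This report describes 8 Rgs genes of the mouse, taken by name out of 46078 mouse genes counted, in single enteroendocrine cells of the upper small intestine. Rgs2, Rgs4, Rgs5 and Rgs16 belong to the R4 subfamily of small RGS proteins, Rgs10 and Rgs12 to the R12 subfamily, and Rgs17 and Rgs19 to the RZ subfamily.

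The cells came from 3 male GLU-Venus mice, aged 20–21 weeks, in which the proglucagon promoter drives a fluorescent protein. The labels name no treatment and call all of them L-cells, and each was sorted into its own well. They form 3 pools of 96 cells, SLX-11175 and SLX-11179 (the shallow pools) and the deeply sequenced SLX-9703. The labels name the pool of a cell but neither its mouse nor its fluorescence. By the study's account the deeply sequenced cells were all fluorescent and came from 1 mouse, while non-fluorescent controls were among the cells of the other mice and could not be set apart here. Cells with at least 20000 reads on mouse genes and at most 20% mitochondrial reads were kept, which left 250 of 288 cells (75, 87 and 88, in the order of pools used throughout). Their depth ran from 20121 to 779919 reads in the first 2 pools and from 319966 to 4368674 reads in pool SLX-9703. The label was only partly borne out by level: Gcg, the proglucagon gene, had a read in 237 of the 250 cells but reached 10000 CPM (reads scaled to 1000000 mouse gene reads per cell) in 58, and the endocrine granule gene Chgb reached 100 CPM in 211.

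Cells were put into 4 disjoint classes by the level of 1 gene each. The Gcg class held 53 cells with at least 10000 CPM of Gcg. The Gip class held 25 cells with at least 10000 CPM of Gip, which encodes glucose-dependent insulinotropic polypeptide. The Nts class held 28 cells with at least 10000 CPM of Nts, which encodes neurotensin, and Pzp was at 100 CPM or more in 9 of them. The Pzp class held 55 cells with at least 100 CPM of Pzp (pregnancy zone protein) and none of the other 3 genes above its threshold. Another 5 cells passed several thresholds and 84 passed none, and these serve as background. Each class had between 5 and 25 cells in each pool. To compare classes, reads were summed per class and pool, which gave 12 sums of 420453 to 53295623 reads. A pool was the replicate (n = 3), and the level of each pool was taken off as a block in the fit. The p-values thus measure how far differences between classes varied between the 3 pools, not how far whole pools differed. That spread was estimated over all 4 classes together. A sum weights deeply sequenced cells more than shallow ones.

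The data turned on Rgs2 and Rgs4, whose levels differed between the classes, with Rgs17 as the third member found in many cells. The sequences upstream of these 3 genes are shown to place them on the genome and because the window of Rgs4 differs from those of Rgs2 and Rgs17 in base composition. Each is 250 bases long and ends at the transcription start of RefSeq (build GRCm38.p6, minus strand for all). Rgs2 lies at chr1:143999338-144004161 (ENSMUSG00000026360), Rgs4 at chr1:169741477-169747642 (ENSMUSG00000038530) and Rgs17 at chr10:5825663-5922400 (ENSMUSG00000019775). The windows are chr1:144004150-144004399, chr1:169747643-169747892 and chr10:5922401-5922650. Capitals mark TGACG (the core of a cAMP response element), CCAAT and TATAAA on either strand.
Rgs2: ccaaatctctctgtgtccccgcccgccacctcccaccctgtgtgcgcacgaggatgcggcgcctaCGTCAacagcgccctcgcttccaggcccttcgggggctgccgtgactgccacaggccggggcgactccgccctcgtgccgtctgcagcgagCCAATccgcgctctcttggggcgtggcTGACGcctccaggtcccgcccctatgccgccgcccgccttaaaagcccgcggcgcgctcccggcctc
Rgs4: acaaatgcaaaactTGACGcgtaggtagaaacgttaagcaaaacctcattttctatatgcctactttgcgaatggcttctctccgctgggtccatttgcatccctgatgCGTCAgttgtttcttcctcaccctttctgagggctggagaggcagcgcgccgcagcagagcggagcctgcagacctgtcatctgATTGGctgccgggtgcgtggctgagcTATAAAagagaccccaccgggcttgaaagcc
Rgs17: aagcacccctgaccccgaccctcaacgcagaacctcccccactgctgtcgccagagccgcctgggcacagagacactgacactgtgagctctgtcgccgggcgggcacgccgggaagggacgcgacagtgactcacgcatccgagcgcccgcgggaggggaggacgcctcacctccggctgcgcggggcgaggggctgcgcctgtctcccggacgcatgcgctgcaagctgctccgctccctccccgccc

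The Rgs2 window held 30 CpG dinucleotides (72.4% G or C) and the Rgs17 window 27 (72.4%), whereas the Rgs4 window held 13 (53.6%). The median over 32851 promoters of that length was 6. TGACG was found 2 times in the Rgs2 window (beginning 185 and 67 bases before the start) and 2 times in the Rgs4 window (236 and 141 bases before). It was not found in the Rgs17 window, and 17.8% of all promoters held it. The palindrome TGACGTCA was in none of the 3 windows and in 1.55% of promoters. CCAAT was found once each in Rgs2 (94 bases before) and Rgs4 (57 bases before), and in 33.8% of promoters. TATAAA was found only in Rgs4 among the 3, 31 bases before the start, and in 12.4% of promoters. GGGCGG, a GC box, was found 4 times in Rgs2, 2 times in Rgs17 and not in Rgs4, and in 32.7% of promoters. These motifs do not overlap one another, apart from the palindrome, which holds the core, and a match is a description of letters only.

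Rgs2 acts mainly on Gq, and its transcript is known to be induced by cAMP and calcium signals. It was the most widely found member, with a read in 161 of 250 cells and at least 100 CPM in 101. In the Pzp class its level was 1485, 1789 and 1604 CPM in the 3 pools (1626 ± 153, SD, n = 3). In the Nts class it was 523, 454 and 1130 CPM. All 3 Pzp sums stood above all 3 Nts sums. In the Gcg class the level was 84.8, 74.4 and 264.5 CPM, below every Nts sum. In the Gip class it was 0, 30.4 and 1.89 CPM, below every Gcg sum, and the 0 of 420453 reads in pool SLX-11175 allows up to 7.14 CPM (3 reads, counting error only). In pool SLX-11179 a single one of the 5 Gip cells held 94.1% of the Rgs2 reads, and without it the sum was 2.94 CPM. The cells of no class had 6.42, 104 and 127 CPM. In the last of these sums 47.4% of the Rgs2 reads lay in the 3 cells with at least 100 CPM of the leukocyte gene Ptprc, and without them it was 80.01 CPM. In the shallow pools 3 plasma cell genes made up 388900 and 296554 CPM of the sums of no class.

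**Figure D1:**
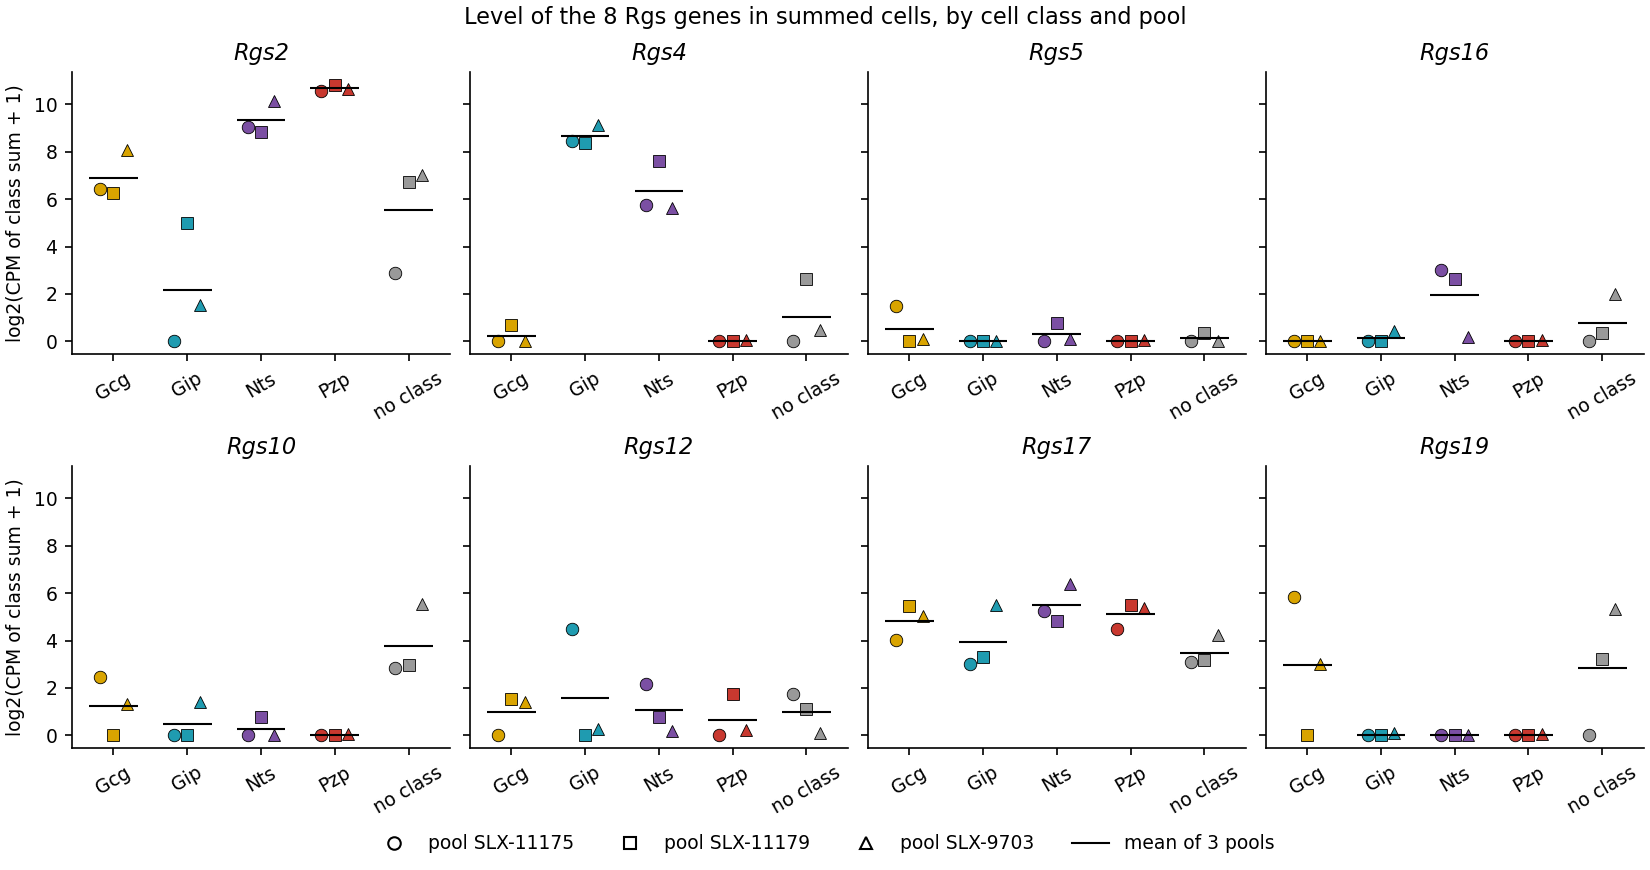
Level of each of the 8 Rgs genes as log2(CPM + 1) of the reads summed over the cells of a class (x axis), 1 point for each pool, with a bar at the mean of the 3 pools. Rgs2 is highest in the Pzp class (1485 to 1789 CPM) and Rgs4 in the Gip class (333 to 559 CPM), while the points of Rgs17 overlap between the 4 classes.

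The order Pzp, Nts, Gcg, Gip held within each pool. Pzp sums held 6.07 to 24.03 times the Rgs2 level of the Gcg sums. They held 58.8 and 847 times that of the Gip sums in pools SLX-11179 and SLX-9703, and at least 208 times that in SLX-11175, of which the first rests on the Gip cell just named. Against the Nts sums the ratio was 1.42 to 3.94. Across the 4 classes Rgs2 differed in edgeR's quasi-likelihood test (Benjamini-Hochberg adjusted p = 3.4e-04 over 9687 genes). It was higher in the Pzp class than in the mean of the other 3 (log2 fold change 3.85, SE 0.51, edgeR adjusted p = 4.7e-04) and lower in the Gip class (−5.57, SE 0.85, adjusted p = 6.2e-04). The Nts class was higher than the mean of the other 3 (2.46, SE 0.53, edgeR adjusted p = 0.0313). That call was lost in 7 of 19 alternatives, among them leaving out pool SLX-11175 (log2 fold change 2.40, edgeR adjusted p = 0.28) or SLX-9703 (1.88, adjusted p = 0.163). The Gcg class did not pass (−0.74, SE 0.60, edgeR adjusted p = 0.948), nor did Nts against Pzp (−1.04, SE 0.67, edgeR adjusted p = 0.999). The neighbours Nts and Pzp were therefore not told apart by this test, while the other neighbours in the order were not tested pair by pair.

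In single cells Rgs2 was read in every cell of the Pzp class, at levels that varied widely. All 55 cells had at least 100 CPM, and cells of the 3 pools ran from 379 to 2944 CPM (median 1296), from 343 to 3494 CPM (median 1476) and from 122 to 5939 CPM (median 1511). At a common depth of 20000 reads per cell, at least 99.6% of the Pzp cells of each pool would keep a read. The Gcg class was mixed: the median cell had no read in either shallow pool and 48.8 CPM in pool SLX-9703, and 13 of 53 cells reached 100 CPM. A single cell held 35.8%, 81.5% and 64.96% of the Rgs2 reads of the Gcg sum, and without it the sums fell to 57.6, 14.3 and 102 CPM. The Gip class held no cell at 100 CPM. Its 6 of 10 cells with a read in pool SLX-9703 reached at most 6.31 CPM, and at 20000 reads per cell 4.70% of all 10 cells would hold a read. Of the cells of no class, 15 of 84 reached 100 CPM.

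The Nts class held both kinds of cell. Rgs2 reached 100 CPM in 16 of its 28 cells, and a single cell held between 42.9% and 66.4% of the reads of a sum. Without that cell the sums were 286, 169.5 and 769 CPM, and the second then lay below the Gcg sum of the deep pool. Nts cells with Pzp 100+ had summed levels of 798, 1547 and 2732 CPM. Nts cells below 100 CPM of Pzp had 317, 93.2 and 107 CPM, below the cells with Pzp 100+ in every pool. The 317 CPM, of pool SLX-11175, included a cell just under that limit, with 92.2 CPM of Pzp and 1211 CPM of Rgs2. The Rgs2 result of the Nts class rested on the cells with Pzp 100+. Without these 9 cells, an alternative added after the data were seen, the log2 fold change was 0.47 (edgeR adjusted p = 0.912). Within the class, Pearson's r between Rgs2 and Pzp (log2(CPM + 1)) was 0.70, 0.66 and 0.81 over 7, 13 and 8 cells, which share their library and its depth. Within the Pzp class the same r was lower, at 0.40, 0.11 and 0.53 over 11, 19 and 25 cells.

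Values of some other gene lists moved with Rgs2, and those of others did not. The summed level of 9 immediate early genes (Fos, Egr1, Jun and others) was highest in the Pzp class in every pool, at 2207, 3922 and 3631 CPM. It was 1859, 3824 and 2759 CPM in the Nts class, 2034, 651 and 2461 in the Gcg class and 264, 1520 and 1480 in the Gip class, so that the order of the other 3 classes changed between pools. Within the Pzp class r between Rgs2 and Fos was 0.44, 0.22 and 0.34 (11, 19 and 25 cells), and within the Gcg class it was −0.16, 0.22 and 0.02 (16, 18 and 19 cells). A list of 4 goblet cell genes stood in the order of Rgs2 in every pool, with 4328 to 5588 CPM in the Pzp class, 2029 to 3922 in the Nts class, 402 to 734 in the Gcg class and 11.9 to 208 in the Gip class. Of this list Clca1 was at 0 in the Pzp sums, with 3 of the 4 genes read. Clca1 was at 0 in the other classes too, and Muc2 in all Gip sums and most Gcg and Nts sums. A list of 8 enterocyte genes stood in that order as well. It had 2556, 2553 and 3413 CPM in the Pzp class and 2405, 2273 and 2938 in Nts. In Gcg it had 1698, 2217 and 2643 CPM and in Gip 528, 673 and 500.2. In the shallow pools 5 of the 8 genes were read in the Pzp sums, with Alpi, Lct and Treh at 0. A list of 5 tuft cell genes was highest in the Pzp class in every pool too, at 27.9, 21.8 and 31.7 CPM from 1, 1 and 2 of its genes. It reached at most 12.5 CPM in any other class. By contrast, a list of 5 endocrine genes was highest in the Gcg class in every pool, at 18700, 17088 and 35540 CPM. It stood at 4850, 4073 and 10354.5 CPM in the Pzp class. Lists of stem and Paneth cell genes did not keep the order of Rgs2 in every pool. The part of these lists in the Rgs2 result was not tested. Serotonin synthesis marks many cells of the Pzp class, and its enzyme gene Tph1 stood at 115, 132 and 538 CPM there and at 215, 213 and 592 CPM in the Nts class, against at most 0.58 CPM in any Gcg or Gip sum. Within the Pzp class r between Rgs2 and Tph1 was −0.34, −0.24 and 0.39 over its 11, 19 and 25 cells.

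Rgs4, which acts on Gi and Gq, is best known from neurons and heart muscle. It had a read in only 38 of 250 cells. In the Gip class its level was 347, 333 and 559 CPM (413 ± 126, SD, n = 3). In pool SLX-11175 a single cell held 76.03% of the reads, and without it the sum was 129.8 CPM (238.8 and 468 CPM in the other pools without their top cells, which held 42.5% and 34.6%). In the Nts class it was 53.4, 193 and 48.8 CPM, below the Gip sum in every pool. The Gcg class held 1 read in all: its sums were 0, 0.63 and 0 CPM, of which the zeros allow up to 2.68 and 0.0606 CPM. The Pzp class held 3 reads, all in pool SLX-9703, at 0.0563 CPM (exact Poisson 95% interval 0.0116 to 0.165, counting error only), and its zeros allow up to 4.92 and 2.34 CPM. Every Gip and Nts sum thus stood above every Gcg and Pzp sum. The cells of no class had 0, 5.16 and 0.39 CPM.

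Gip sums held at least 129.7 times the Rgs4 level of the Gcg sum in pool SLX-11175 and at least 9229 times in pool SLX-9703. Against Pzp they held at least 70.5 and 142 times in the shallow pools. Against the Nts sums the ratio was 6.51, 1.72 and 11.5. The ratios of pool SLX-11175 rest largely on its top Gip cell. The top cell held 76.7%, 58.02% and 97.3% of the reads of the Nts sums, and without it they were 14.2, 89.8 and 1.46 CPM. In edgeR's test Rgs4 differed across the classes (adjusted p = 8.3e-08, rank 5 of 9687 genes by p). It was higher in the Gip class than in the mean of the other 3 (log2 fold change 10.21, SE 0.62, edgeR adjusted p = 1.9e-08, rank 2). The Nts class was also higher than the mean of its other 3 (6.26, SE 0.63, edgeR adjusted p = 1.4e-05), though below the Gip class in every pool. Against such means Rgs4 was lower in the Gcg class (−8.72, SE 1.26, edgeR adjusted p = 0.00268) and in the Pzp class (−7.75, SE 1.70, adjusted p = 0.0322). Against the Pzp class the Nts class was higher (10.50, SE 1.07, edgeR adjusted p = 8.0e-05). The sizes of these fitted folds depend on the prior count, since the Gcg and Pzp classes hold almost no read, and they are no bounds. The Gcg call was lost without pool SLX-11175 (log2 fold change −8.86, edgeR adjusted p = 0.0868) and without pool SLX-9703 (−5.32, adjusted p = 1). The Pzp call was lost without pool SLX-11175 (log2 fold change −7.79, edgeR adjusted p = 0.198) and without pool SLX-11179 (−7.04, adjusted p = 1).

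**Figure D2:**
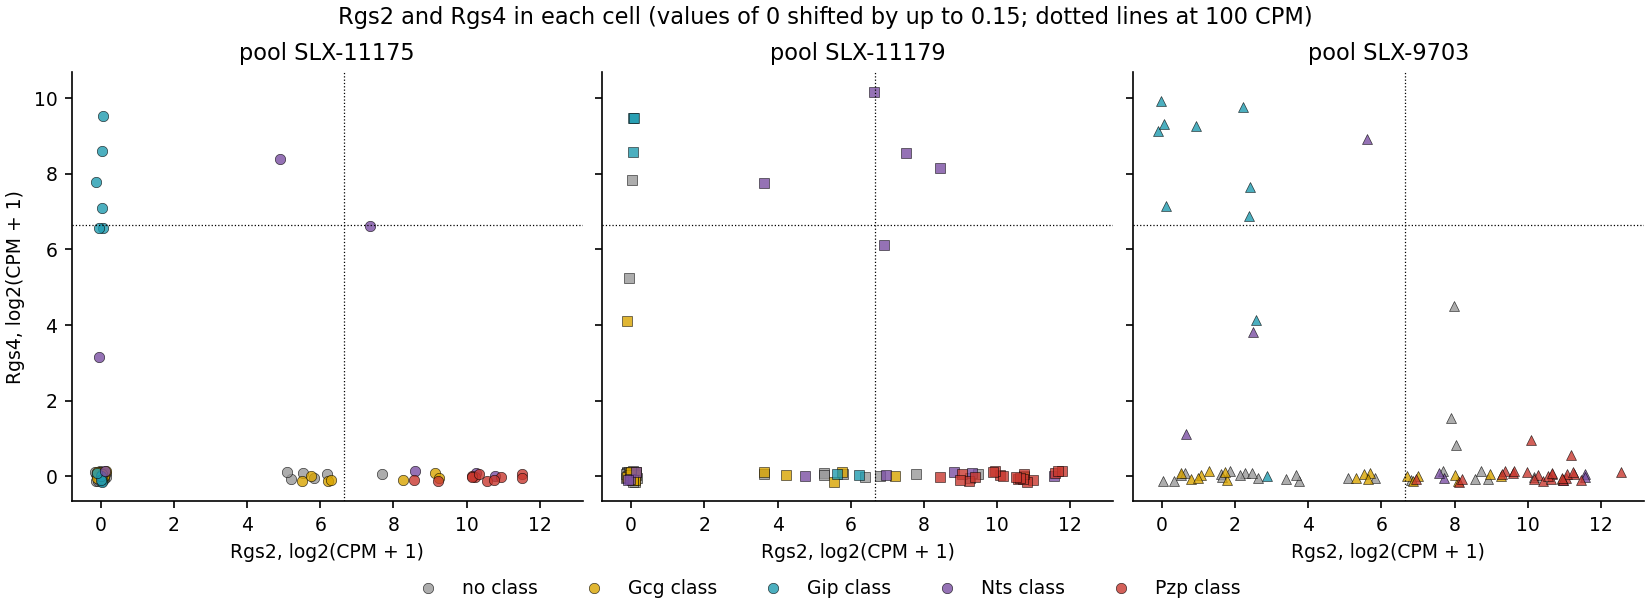
Rgs2 (x axis) against Rgs4 (y axis) in single cells, both as log2(CPM + 1), with 1 panel for each pool and colours for the class. The 5 cells past several thresholds are left out. Gip cells lie along the Rgs4 axis and Pzp cells along the Rgs2 axis, and only 2 cells, both of the Nts class in pool SLX-11179, lie beyond 100 CPM on both.

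Within the Gip class Rgs4 varied with Gip. It reached 100 CPM in 15 of 25 cells and had a read in 18. In pool SLX-11175 cells ran from 0 to 736 CPM (median 93.7), in SLX-11179 from 0 to 714 CPM (median 385) and in SLX-9703 from 0 to 976 CPM (median 384). At 20000 reads per cell between 59.4% and 81.2% of Gip cells of a pool would hold a read (6 of 10, 3 of 5 and 9 of 10 cells before thinning). At a Gip level of at least 100000 CPM, a limit chosen after the values were seen, 13 of 14 cells had a Rgs4 read and 11 reached 100 CPM, against 5 and 4 of 11 cells below it. The 1 exception among the high cells, in pool SLX-11179, had 504154 CPM of Gip, no Rgs4 read in 218842 reads and 73.1 CPM of Rgs2. Pearson's r between Rgs4 and Gip was 0.77 over 10 cells of SLX-11175 and 0.85 over 10 cells of SLX-9703, and none was computed over the 5 cells of SLX-11179, which hold the exception. Gip reads alone made up 281033, 444691 and 379320 CPM of the 3 Gip sums. Depth differed too, as the median Gip cell of SLX-11175 held 28664 reads and that of SLX-11179 held 110587, and its part in the relation was not tested.

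Within the Nts class Rgs4 rested on few cells. It had a read in 11 of 28 cells and reached 100 CPM in 6. The top cell held 76.7%, 58.02% and 97.3% of the reads of a sum. With the top Rgs4 cell of every sum left out, an alternative added after the data were seen, Rgs4 stayed past the threshold in the Nts class, but the difference from the Pzp class did not (log2 fold change 9.67, edgeR adjusted p = 0.0502). Cells with Rgs4 had high Nts: of 13 cells with at least 100000 CPM of Nts, 9 had a Rgs4 read and 6 reached 100 CPM, against 2 and 0 of 15 cells below that limit. Pearson's r between Rgs4 and Nts in the class was 0.61, 0.77 and 0.73 over 7, 13 and 8 cells. Few Nts cells with Pzp 100+ held Rgs4, but most of these also lay below 100000 CPM of Nts. Of the 9 Nts cells with Pzp 100+, 1 (pool SLX-11175) had a Rgs4 read, at 335 CPM with 29.2 CPM of Rgs2. Of the 19 below 100 CPM of Pzp, 3 had at least 100 CPM of Rgs4 alone and 2 of both Rgs4 and Rgs2.

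**Figure D3:**
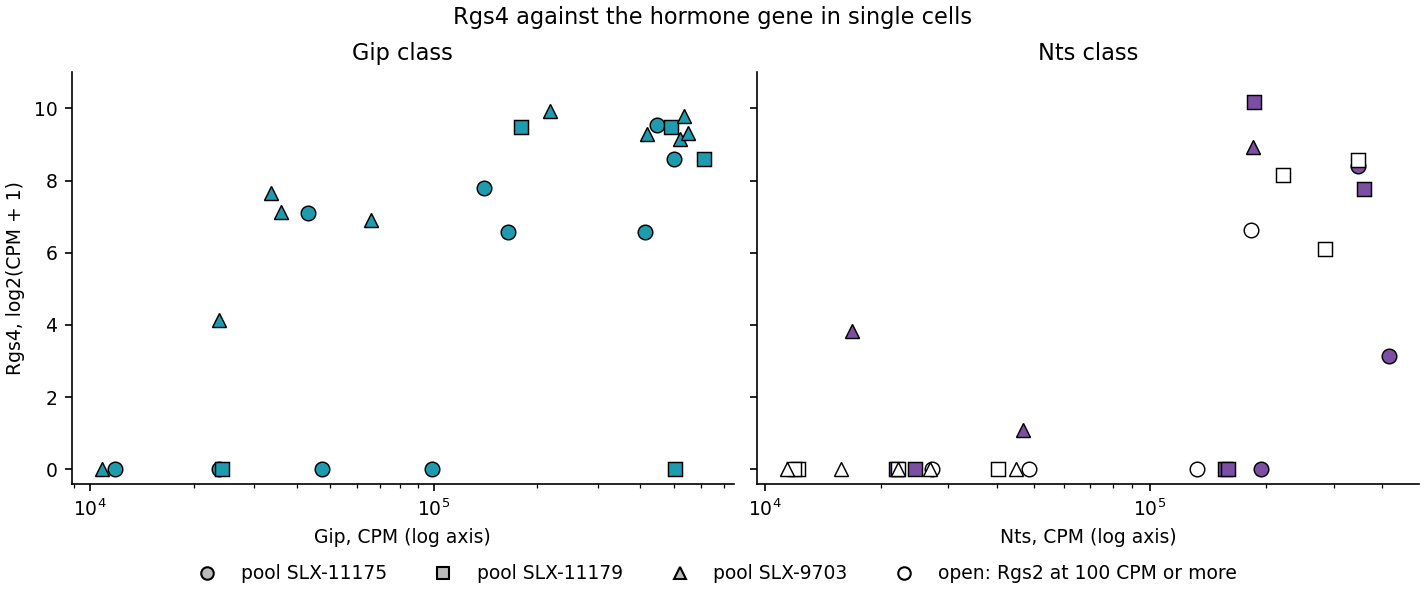
Rgs4 as log2(CPM + 1) (y axis) against the level of the class gene in CPM on a log axis (x axis), in the 25 cells of the Gip class (left) and the 28 of the Nts class (right). Marker shapes are pools, and open markers are cells with at least 100 CPM of Rgs2. Most cells above 100000 CPM hold Rgs4, and open markers are found only in the Nts class.

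Rgs2 and Rgs4 were seldom both high in a cell, though low levels of Rgs2 were often found beside Rgs4. Of the 38 cells with a Rgs4 read, 21 also had a Rgs2 read, among them 10 of 11 in the Nts class and 5 of 18 in the Gip class. All 5 of these Gip cells were in the deep pool, where Rgs2 was read in 83 of 88 cells. Among the 250 cells, 2 Nts cells of pool SLX-11179 had at least 100 CPM of both (349 and 285 CPM, and 183 and 378 CPM of Rgs2 and Rgs4), as did 1 cell of pool SLX-11175 past several thresholds. In the Nts class 14 cells had Rgs2 alone at that level, 4 had Rgs4 alone and 8 had neither. In the Gip class 15 had Rgs4 alone and 10 neither. Near the class limits, counts were taken over cells of the class just inside its threshold and cells of no class just outside. All 4 Pzp cells with 100 to 200 CPM of Pzp reached 100 CPM of Rgs2, and no cell of no class had 50 to 100 CPM. Of the Nts cells with 10000 to 20000 CPM of Nts 4 of 5 reached 100 CPM of Rgs2, as did 3 of 5 cells of no class with 5000 to 10000. For Gcg these bands held 1 of 4 and 2 of 6 such cells. For Gip they held 0 of 2 and 0 of 1, and none of the cells in any of these bands reached 100 CPM of Rgs4.

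Rgs5 and Rgs16 are the other R4 members among the 8. Rgs5, a marker of pericytes, lies next to Rgs4 on chromosome 1 (chr1:169655501-169695813, plus strand), with no gene in the 45.7 kb between them, and 4 of the 8 members lie on that chromosome. Unlike its neighbour it was nearly unread: it had 12 reads in all, 1 in each of 12 cells, and none in the Gip class. Its highest sum was 1.79 CPM (Gcg class, pool SLX-11175). A list of 6 pericyte and smooth muscle genes summed to at most 14.3 CPM in any class. Rgs16 (chr1:153740349-153745468, overlapped by the antisense gene Gm28513, so that reads without strand are uncertain) had no read in the Gcg class. Its sums in the Nts class were 7.12, 5.16 and 0.14 CPM, from 5 of 28 cells, against 0, 0 and 0.36 CPM in the Gip class and 0, 0 and 0.0375 CPM in the Pzp class. The zeros of the Gip class allow up to 7.14 and 5.37 CPM, so a difference from the Nts class was not detectable at this depth in the shallow pools. All 3 Nts cells above 25 CPM were in the shallow pools and held 3 or 4 reads each. It did not pass the filter on low counts, and in the same fit without the filter its edgeR adjusted p for the Nts class was 0.291.

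Rgs10 and Rgs12 of the R12 subfamily were sparse. Rgs10, a short protein known from leukocytes and microglia (chr7:128373621-128418758, overlapped by Gm15503), had reads in 15 of 250 cells. Its sums were at most 4.46 CPM in the 4 classes, and each of the higher ones came from 1 cell. It reached 71.6 CPM in a Gcg cell of pool SLX-11175, 38.02 CPM in a Gip cell of pool SLX-9703 and 16.7 CPM in a Gcg cell of that pool. Rgs12, a large protein with several binding domains (chr5:34949445-35039644, overlapped by Mir3097 and Gm43791), had a read in 34 cells but at most 59.7 CPM in any, in a Gip cell of pool SLX-11175. Its mean level was 1.17 CPM in the Gcg class, 7.21 in Gip, 1.48 in Nts and 0.84 in Pzp, with SDs of 1.02, 12.3, 1.83 and 1.30 (n = 3), so that the classes overlap. Neither passed the filter.

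The RZ subfamily acts on Gi, Go and Gz. Rgs17 was found in all classes. Its sums were 15.2, 42.5 and 32.1 CPM in the Gcg class, 7.14, 8.95 and 44.6 in Gip, 37.4, 27.3 and 82.7 in Nts and 21.3, 44.4 and 40.7 in Pzp. The ranges of the 4 classes overlap. Cells of no class had 7.43, 8.03 and 17.6 CPM. No difference was called by edgeR (adjusted p = 0.946 across the classes, and 0.796 to 0.997 for each class against the other 3). Only 25 of 250 cells reached 100 CPM, and a single cell held between 19.2% and 61.5% of the reads of the Gcg, Nts and Pzp sums. In the Gip class 1 cell held all Rgs17 reads of each shallow sum, which was 0 CPM without it, and 38.4% in the deep one. Thinned to 20000 reads, 3.47% to 42.3% of cells of a class and pool would hold a read. Across the cells of a pool r between Rgs17 and Rgs2 was 0.31, 0.17 and 0.06 over 75, 87 and 88 cells.

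Rgs19 (chr2:181688419-181693977), also called GAIP, had reads in 17 cells. In the Gcg class its sums were 56.2, 0 and 7.10 CPM. In pool SLX-11175 a single cell held 62 of the 63 reads, at 343 CPM, and without it the sum was 1.06 CPM. In pool SLX-9703 the reads were mostly in 2 cells, at 49.3 and 45.8 CPM. The Gip, Nts and Pzp classes together held 4 reads in pool SLX-9703, with none in the Nts class. The gene did not pass the filter on all 3 pools. It passed with pool SLX-11179 left out, and there it was called higher in the Gcg class (log2 fold change 8.21, edgeR adjusted p = 0.0216) and across the classes (adjusted p = 0.0338). In the fit without the filter it was also called higher in the Gcg class (log2 fold change 7.93, edgeR adjusted p = 2.2e-04). That fit gave smaller p for Rgs2 and Rgs4 too, such as an edgeR adjusted p of 2.7e-32 for Rgs2 in the Pzp class. All of these Rgs19 values rest on the few cells just named.

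**Figure D4:**
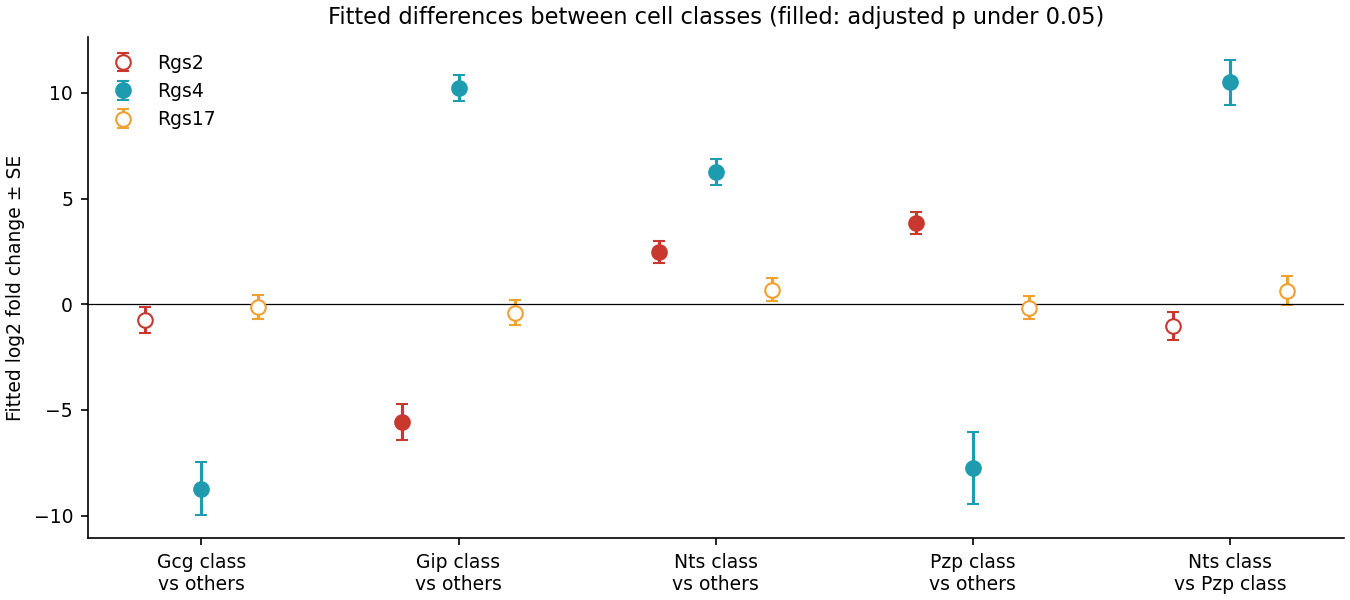
Fitted log2 fold change from edgeR for the 3 members that passed the filter, each class against the mean of the other 3 and Nts against Pzp. Bars are ± SE, worked out from the fold and the F statistic. Filled circles are adjusted p under 0.05. Among the classes Rgs4 runs from −8.72 (Gcg class) to 10.21 (Gip class), and it stands at 10.50 in Nts against Pzp, while no Rgs17 value is filled.

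In all, 3 of the 8 members passed the filter on low counts, and Rgs4 did so through the classes in which it is high, so the counts called are no share of the 8. Across the classes edgeR called 2 members, where 2.78% of all genes tested were called. In the Gip class it called 2 members (4.01% of genes called), Rgs4 higher (1.63% of genes) and Rgs2 lower (2.37%). In the Nts class it called 2 (0.805%), both higher (0.712%). In the Pzp class it called 2 (0.991%), Rgs2 higher (0.692%) and Rgs4 lower (0.299%). In the Gcg class it called 1 (0.237%), Rgs4, which was lower (0.0929%). Nts against Pzp gave 1 member, higher in Nts, among 4 genes called (0.0413%).

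To compare members within a cell, reads were divided by exon length. By this measure Rgs2 was the leading member in 55 of 55 Pzp cells. Rgs4 led in 17 of 25 Gip cells, with Rgs2 leading in 3, Rgs10 in 1 and no Rgs read in 4. The Nts class was divided: Rgs2 led in 15 of 28 cells, Rgs4 in 6, Rgs16 in 2, Rgs17 in 2, and 3 had no read. In the Gcg class Rgs2 led in 27 of 53 cells, Rgs17 in 9, Rgs12 in 3, Rgs19 in 2 and Rgs10 and Rgs4 in 1 each, while 10 had no read of any member. The Gcg and Gip cells without any read were all in the shallow pools. In class means per kb, Rgs2 stood at 448 ± 42.2 CPM per kb in the Pzp class and 38.9 ± 29.5 in the Gcg class, and Rgs4 at 133 ± 40.8 in the Gip class (SD, n = 3).

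**Figure D5:**
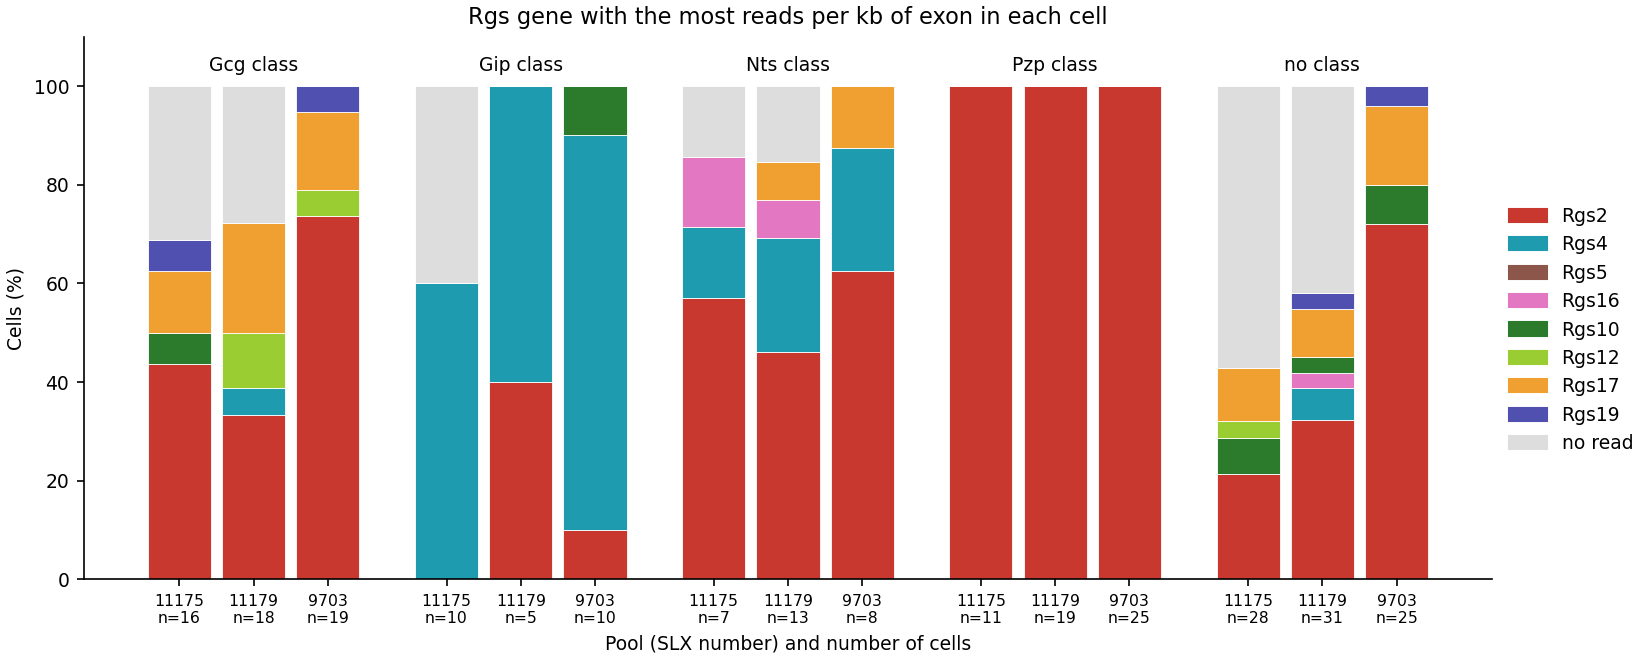
Share of cells (y axis, %) in which each Rgs gene had the most reads per kb of exon, for each class and pool (x axis, with the number of cells). Rgs2 fills the 3 Pzp bars, Rgs4 is the largest part of the 3 Gip bars, and the Gcg and Nts bars are mixed.

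The genes whose level was most like a member's were sought over the 88 cells of pool SLX-9703, among 12159 genes with a read in at least 25% of them. For Rgs2 they were Onecut3 (r = 0.77), Pzp (0.74) and Cyp2j5 (0.73), and r was 0.75 and 0.78, 0.79 and 0.77, and 0.69 and 0.58 in the shallow pools. For Rgs17 they included Psmc2 (0.43) and Nt5c3 (0.42), both weak, with r of 0.26 and 0.01 for Psmc2 and 0.36 and 0.28 for Nt5c3 in the other pools. Rgs4, with a read in 19.3% of these cells, fell outside the rule and was added after its values were seen: its nearest were Gip (0.78), Scarb1 (0.70) and Fabp5l2 (0.70). In the shallow pools r was lower, at 0.58 and 0.32 for Gip, 0.52 and 0.33 for Scarb1 and 0.01 and 0.22 for Fabp5l2. Cells of 1 pool share their library preparation and differ in depth, and a correlation across cells is a description.

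Of the other 15 genes of the RGS family and its partners, 3 passed the filter and edgeR called none in any of the 6 comparisons (across classes, Gcg, Gip, Nts, Pzp, and Nts against Pzp). Rgs11 of the R7 subfamily had 35.7, 16.1 and 185 CPM in the Gip class and class means of 7.46, 5.92 and 15.2 CPM in Gcg, Nts and Pzp (log2 fold change 4.09 in the Gip class, SE 1.15, edgeR adjusted p = 0.0553). DESeq2 called it in the Gip class, and limma called it there and across the classes. Rgs7 of the same subfamily averaged 33.2, 6.17, 29.4 and 36.8 CPM in the Gcg, Gip, Nts and Pzp classes (Gip class −2.98, SE 1.25, edgeR adjusted p = 0.221), and limma called it in the Gip class. Over all 9687 genes tested DESeq2 called 943 in the Gip class, and limma 2408 there and 1152 across the classes. The median fitted log2 fold change of the 3 tested genes lay between −2.98 (Gip class) and 1.36 (Gcg class). Rgs1, Rgs13 and Rgs18, known from leukocytes and tuft cells, stayed at or below 0.91 CPM in every class mean.

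Of 16 genes of G protein α subunits, on which these proteins act, 11 passed the filter and edgeR called none in the same comparisons, while DESeq2 called Gnao1 across the classes and in the Gip class. Limma called Gna11, Gnai1, Gnai2 and Gnai3 in the Gip class and Gnai1 across the classes. Over all 9687 genes tested limma called 2408 in the Gip class and 1152 across the classes, and DESeq2 943 and 700. Gnai2 averaged 134, 69.3, 157 and 154 CPM in the Gcg, Gip, Nts and Pzp classes, and Gnaq 45.9, 23.02, 36.6 and 50.8 CPM. The medians of the fitted log2 fold changes of the 11 lay between −0.02 and 0.05, against −0.19 to 0.13 over all genes tested.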

How the data were processed

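Single cells of the mouse upper small intestine were sequenced by Smart-seq2, which marks no strand and adds no molecular identifiers. The authors deposited raw counts per gene and cell, made with GSNAP 2015-09-29 on build mm10 and HTSeq 0.5.3p3 according to the submitters' processing notes. Lines that name no gene held 77.6% of the counts and 92 spike-ins 5.34%, and both were left out. A further 4 columns matched no sample and were not used. Symbols and coordinates came from GENCODE M21 (45229 of 46078 genes matched) and promoters from RefSeq. No 2 cells held identical counts.

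Members, lists and most tests were chosen with earlier results of these data known. Named in the text are all 8 members, other RGS or Gα genes that passed a test, RGS genes with a class mean of at least 10 CPM, Rgs1, Rgs13 and Rgs18, and the 3 genes most like a member, of which 1 is not reported here. Gnaq lies outside that rule and was chosen after its values were seen.

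Counts were summed per class and pool (at least 3 cells), normalized by TMM, filtered with filterByExpr and compared with edgeR 4.0.16 (quasi-likelihood, adjusted p under 0.05 by Benjamini-Hochberg over 9687 genes) with the pool as a block. Whether each pool of 96 cells is 1 mouse is not in the labels. After class means were taken off, sums of the same pool correlated with r of 0.0235 to 0.396 (18 pairs) and sums of different pools with −0.194 to 0.0724 (36 pairs). Alternatives used DESeq2 1.42.0, limma 3.58.1, other depth, class and gene limits, other groupings, and each pool left out. The quasi-likelihood test gives no SE. The SE beside an edgeR fold is the size of the log2 fold change divided by the square root of the F statistic. Like the fold, it depends on the prior count where a class holds almost no read. Intervals and limits of 3 reads cover counting error only. No doublet caller was run. By the study's account small groups of cells could not be fully kept out of the sort, so wells with more than 1 cell may remain, also among cells past several thresholds.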

Additional observations from a re-analysis of the deposited data

Results flagged for a closer look

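Cells of no class, which were left out of the comparisons of the report, held 3 members in pool SLX-9703 above their level in any class of that pool. Rgs16 stood at 3.00 CPM in their sum, Rgs10 at 45.1 CPM and Rgs19 at 38.9 CPM. Most of these reads lay in 3 of the 25 cells. Their Rgs10 levels were 342, 218 and 185 CPM and their Rgs19 levels 141, 402 and 254 CPM, and 1 of them held 107 of the 108 Rgs16 reads (114 CPM). These are also the only 3 of 250 cells with at least 100 CPM of Ptprc, a gene of leukocytes (644 to 1150 CPM), and 6 or 7 of 8 leukocyte markers had a read in them. By the study's account the deeply sequenced cells had all been sorted as fluorescent. Over whole classes that list of 8 summed to at most 15.5 CPM, against 134, 160 and 979 CPM in cells of no class. Without these 3 cells the sum of the cells of no class fell to 4.75 CPM of Rgs10, 0.0332 CPM of Rgs16 and 0.0664 CPM of Rgs19. They also held 47.4% of its Rgs2 reads, and Rgs2 fell from 127 to 80.01 CPM. In the shallow pools, 1 cell of each, with 656021 and 713112 CPM of 3 plasma cell genes (Jchain, Igkc, Igha), held 32.96 and 57.7 CPM of Rgs10. Rgs10 was not confined to such cells, as another cell of no class in pool SLX-9703 had 91.6 CPM with 0.65 CPM of the leukocyte list and 50739 CPM of 5 endocrine genes.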

How the results depend on the processing

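Rgs2 in the Gip, Nts and Pzp classes, and Rgs4 in each class and in Nts against Pzp, kept their direction under all 19 alternatives. The higher Rgs4 of the Gip class (log2 fold change 5.94 to 11.41, highest adjusted p 4.2e-05) and of the Nts class (3.60 to 6.73, 0.0467), and Rgs2 in the Pzp class (3.42 to 5.48, 0.0437) and in the Gip class (−8.12 to −4.21, 0.0246) stayed past the threshold in each. Rgs2 in the Gcg class, which was not called, turned from a log2 fold change of −0.74 to 0.19 without pool SLX-11179. The count of members called in the Nts class, 2, was 1 with no replicate block (the block and the pairing by pool left out), with limma on mean CPM, with doubled thresholds, with cells of several thresholds kept and without Pzp 100+ cells. Each of these lost Rgs2 (adjusted p 0.0575, 0.0786, 0.282, 0.0933 and 0.912). Its log2 fold change was 2.36, 2.60, 1.59, 2.05 and 0.47 there, against 2.46 in the main fit. The count for the Pzp class, 2, was 1 at a minimum of 50000 reads, with cells of no class added and without the top Rgs4 cell of each sum, which lost Rgs4 (0.0533, 0.0886 and 1). The Rgs4 log2 fold change stayed about as large there (−7.76, −7.55 and −7.50, against −7.75 in the main fit). The count for the Gcg class, 1, was 2 with no filter on genes, which added Rgs19, and 0 without the top Rgs4 cell, and Nts against Pzp fell from 1 to 0 without that cell. The Rgs4 log2 fold change of the Gcg class was −9.19 without that cell, against −8.72 in the main fit. With 1 pool left out the counts ranged from 0 to 2 in the Gcg class (the second being Rgs19, which passed the filter without SLX-11179 and was called there and across the classes), from 1 to 2 in the Nts class and from 1 to 2 in the Pzp class. Leaving out SLX-11175 or SLX-9703 ended the Rgs2 call of the Nts class (adjusted p 0.28 and 0.163). The block changed no other call of a member. Calls over all genes moved more: in the Gip class from 388 to 943 with DESeq2, 2408 with limma, 678 with no filter and 156 to 280 with a pool left out, and across the classes from 269 to 700, 1152, 641 and 102 to 145. In the Gcg class they moved from 23 to 102 with DESeq2, 113 with no filter and 7 to 19 with a pool left out, in the Nts class from 78 to 232, 218 and 23 to 59, in the Pzp class from 96 to 221, 222 and 38 to 48, and in Nts against Pzp from 4 to 67, 34 and 2 to 4. Other counts of all genes that moved by over 1.5 times were 238 in the Gip class and 176 across the classes at a minimum of 50000 reads, 48 in the Nts class with limma and 13 in the Gcg class with doubled thresholds. Nts against Pzp gave 17 with doubled thresholds, 9 with cells of several thresholds, 19 without Pzp 100+ cells and 2 without the top Rgs4 cell. Limma also called Rgs17 in the Gip class. Leaving out length changed the leading member in 6 of 250 cells. Thinning to 20000 reads left 29 of 36 shares of cells with a read within their interval, and the 7 that moved were all in the deep pool. A single Gip or Nts sum held as few as 420453 reads, so levels under about 7.14 CPM were not detectable in the shallowest.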

Other observations

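Of the 5 cells past several thresholds, 1 had at least 100 CPM of both Rgs2 and Rgs4, 1 of Rgs2 alone and 3 of neither, and Rgs17 led per kb in 3. In the 3 of pool SLX-11175 their sum held 189 CPM of Rgs2, 79.8 CPM of Rgs4 and 54.6 CPM of Rgs17. The single such cell of pool SLX-11179 had no Rgs2 or Rgs4 read and 172 CPM of Rgs17, and that of pool SLX-9703 had 0.33 CPM of Rgs2 and none of Rgs4. Of the 84 cells of no class, Rgs2 led per kb in 34, Rgs17 in 10, Rgs10 in 5 and Rgs4 and Rgs19 in 2 each, and 29 had no Rgs read. A cell of no class in pool SLX-11179 had 226 CPM of Rgs4. Rgs1 averaged 69.7 ± 120 CPM in cells of no class (SD, n = 3), with 208 CPM in pool SLX-9703 and at most 0.86 CPM in the shallow pools.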
